A study of Homo sapiens with 24 samples.

Results

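RNA-seq libraries of the human HL-60 line were compared, 3 from cells given all-trans retinoic acid (ATRA) at 1 µM for 48 h and 3 from untreated cells. They were the ATRA and untreated HL-60 libraries among the 24 libraries of a study that treated HL-60 and NB4 cells with ATRA, arsenic trioxide (ATO, 0.8 µM) or both. No feature was selected beforehand, so all 15895 genes that passed the filter on low counts were described. HL-60 is a cell line from an acute myeloid leukaemia without the PML-RARA fusion and is labelled as wild-type promyeloblast, whereas NB4 comes from an acute promyelocytic leukaemia and is known to carry that fusion. All groups were grown in RPMI-1640 with 10% fetal bovine serum. Each line is 1 established culture, and the labels number the 3 libraries of a group as batches 1 to 3 without saying whether they came from separate cultures. P-values here therefore measure only the spread between these libraries, which may be technical. How long the untreated cells were kept in culture is not given in the sources used here.

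ATRA is the natural ligand of the retinoic acid receptors (RARs), which bind DNA as partners of the retinoid X receptors. Without ligand the pair holds corepressors on its targets, and with ligand it recruits coactivators. Promyelocytic cells exposed to ATRA are known to stop dividing and to take on features of neutrophils, among them surface integrins, a working NADPH oxidase and a lobed nucleus. The series asks how differentiation therapy alters transcription, DNA damage response genes included, in cells with and without acute promyelocytic leukaemia.

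The 6 libraries held 41805150 to 57795273 counts. The first principal component of these 6 libraries held 74.1% of the variance and separated the treatments, and on the second (7.30%) untreated replicate 3 lay apart from the other untreated libraries. All 10 neutrophil lineage markers checked were at 1 CPM (counts per 1000000 counts of the scaled library) or more in both groups. The line labels were checked against a gene known to differ between the lines: CDKN2A was at 6.52 to 6.82 CPM in untreated HL-60 libraries and had no count in untreated NB4.

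ATRA changed the level of about as many genes upward as downward, but the large changes were mostly rises. Of 15895 genes tested, 7723 (48.6%) passed an adjusted p of 0.05 in edgeR's quasi-likelihood test. Of these 4013 (25.2%) were higher with ATRA and 3710 (23.3%) lower. These shares of all tested genes are the background for the counts of every gene list below. At 2-fold or more, 1393 genes rose (8.76%) and 776 fell (4.88%). At 16-fold or more, 231 rose and 91 fell. The median log2 change of all tested genes was 0.01. Of the 7723 called genes, 7655 had the same sign in all 3 batches. The call rests on the same values and favours such agreement, so this is no separate support. Every ATRA library lay above every untreated one for 29.2% of all tested genes and below for 27.7%, so such separation was common.

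**Figure D1:**
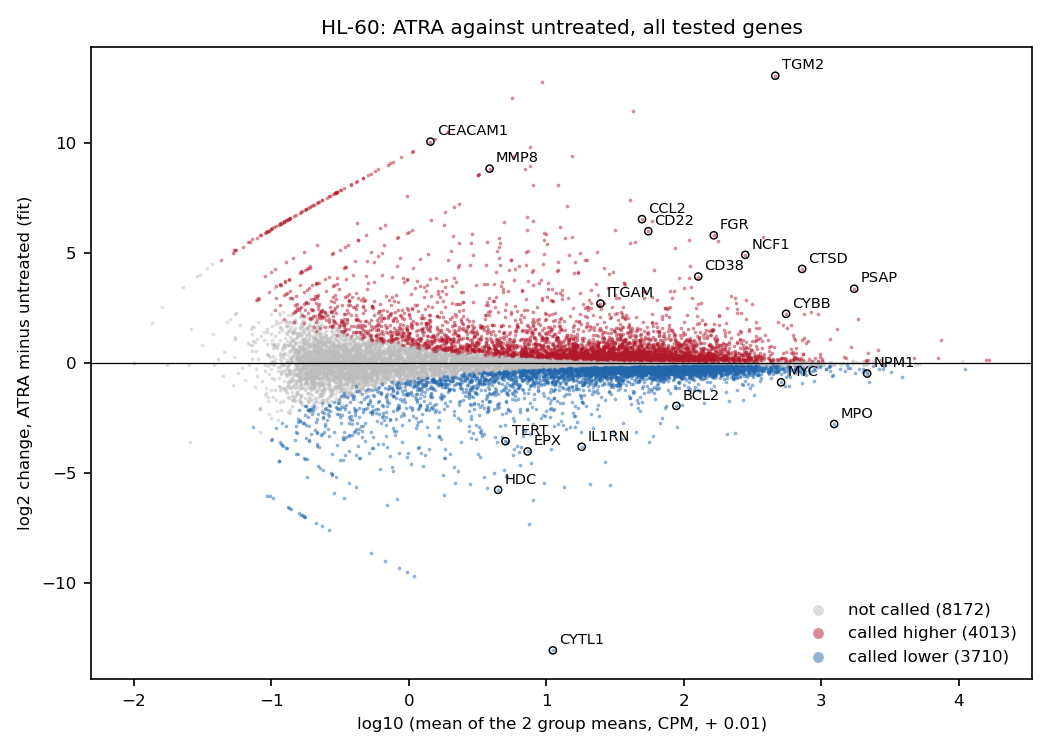
Log2 change with ATRA in HL-60 (vertical axis) against the log10 mean level in CPM (horizontal axis), 1 point per tested gene. The 4013 genes called higher are red, the 3710 called lower are blue and the 8172 not called are grey; the straight diagonal rows are genes with no count in 1 group, whose fitted change depends on the prior count.

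The largest rise among well expressed genes was that of TGM2, which encodes tissue transglutaminase, a protein cross-linking enzyme long used as a marker of retinoid exposure. TGM2 was at 0.0235, 0.187 and 0.0886 CPM in the untreated libraries and 916, 913 and 952 CPM after ATRA. Its log2 change was 13.06 ± 0.14 (adjusted p = 4.2e-25), an error that may be too narrow at so low an untreated level. HIC1, a zinc finger repressor, went from 0, 0 and 0.0886 to 91.2, 82.9 and 83.9 CPM. ADGRG3, an adhesion G protein-coupled receptor of granulocytes, was at 0.0469, 0.0748 and 0.133 CPM before and 23.4, 25.1 and 24.1 CPM after ATRA. For all 3 genes every ATRA library lay far above every untreated one. Among the 15 largest rises of protein-coding genes reaching 5 CPM were also the lipid and sugar genes MLXIPL, the carbohydrate-sensing factor ChREBP (0.0406 to 30.6 CPM), and PNPLA3, a lipid droplet acyl hydrolase. PNPLA3 had 2 counts in the untreated group and 1745 after ATRA, a ratio of 819 in CPM (95% counting interval 227 to 6772). The leukotriene hydroxylase CYP4F3 (0.0249 to 15.2 CPM) and the actin-binding protein PALLD (0.0125 to 15.2 CPM) were in the same group.

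Of the 10 genes without a count in 1 group and at 2 CPM or more in the other, 8 were on after ATRA. P2RY13, a purine nucleotide receptor, had no count in the untreated libraries and was at 10.4, 12.1 and 11.3 CPM after ATRA, at least 175-fold higher against a floor of 3 counts per library. S100A12, CEACAM1, DAAM2, TRPM4, C10orf105 and ARL14EPL reached 2.08 to 3.87 CPM. CYTL1, a small secreted protein first described in CD34+ cells, showed the reverse: it was at 21.0, 25.0 and 21.0 CPM in untreated libraries and had no count in any ATRA library, at least 370.0-fold lower. KIRREL3 was at least 36.1-fold lower.

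Other genes that fell steeply were CHAT, choline acetyltransferase, at 15.1, 15.2 and 14.4 CPM in untreated cells and 0.0861, 0.141 and 0.0424 CPM after ATRA, and CA2, a carbonic anhydrase, at 60.7, 56.2 and 53.4 and 1.44, 0.775 and 1.53 CPM. The groups did not overlap for either gene. ZBTB16, the PLZF repressor that marks undifferentiated progenitors and is itself a fusion partner of RARA in rare leukaemias, fell from 18.8 to 0.447 CPM (-5.44 ± 0.32 on the log2 scale). CSPG4, the NG2 proteoglycan of leukaemic blasts, fell from 15.8 to 0.213 CPM. F13A1, the A subunit of clotting factor XIII, fell from 51.0 to 2.32 CPM, and STAB1, a scavenger receptor, from 8.06 to 0.246 CPM.

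The retinoid receptors themselves moved unequally. Of 12 tested receptors and cofactors, 9 rose, 1 fell and 2 did not pass, with a median log2 change of 0.31. RARA rose slightly, from 43.1, 45.9 and 37.9 CPM to 49.8, 48.4 and 50.5 CPM (0.23 ± 0.074, adjusted p = 0.014), a call lost without ATRA replicate 3 or untreated replicate 3 (adjusted p = 0.051 and 0.11). RARB, a receptor gene that retinoids are known to induce, had no count in the untreated libraries and was at 0.668, 0.352 and 0.848 CPM after ATRA, at least 9.68-fold higher and still low. RARG rose from 0.613 to 1.90 CPM. RXRA, the obligate partner, was the 1 member that fell, from 178, 179 and 175 CPM to 80.3, 74.6 and 73.7 CPM (-1.22 ± 0.055). NRIP1, a corepressor that binds liganded receptors, rose from 31.3 to 87.7 CPM and the coactivator NCOA3 from 55.6 to 193 CPM.

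Genes that make, store or destroy retinoic acid rose in 8 of 11 cases, fell in 1 and did not pass in 2 (median log2 change 0.67). DHRS3, which returns retinaldehyde to retinol, was at 14.2, 14.8 and 15.4 CPM in untreated and 141, 144 and 150.3 CPM in ATRA libraries (3.29 ± 0.060, adjusted p = 1.5e-21). CYP26B1, a retinoic acid hydroxylase, was at 0.423, 0.112 and 0.0443 and 6.07, 5.74 and 5.04 CPM (4.90 ± 0.33). Its better known relative CYP26A1 did not pass the filter, with 4, 0 and 0 counts before and 11, 12 and 10 after ATRA. The dehydrogenases ALDH1A1 and ALDH1A2, which form retinoic acid, and DHRS9, which forms its aldehyde precursor, rose by 1.67, 2.45 and 1.56 on the log2 scale, the second from a very low level (0.0604 to 0.356 CPM). FABP5, which carries retinoic acid to another nuclear receptor, fell by 0.60.

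Of 17 genes listed as retinoic acid responsive in myeloid cells, 15 rose, 1 fell and 1 did not pass, a median log2 change of 1.99 against 0.01 over all genes. CD38, an NAD glycohydrolase of the cell surface and a classical ATRA marker of HL-60, was at 15.0, 16.9 and 14.9 CPM in untreated and 236, 241 and 242 CPM in ATRA libraries (3.94 ± 0.074, adjusted p = 2.2e-21). The groups did not overlap. ASB2, a ubiquitin ligase subunit (2.94 ± 0.13), PRAM1, an adaptor named for its regulation by PML-RARA (1.82 ± 0.058), and TNFAIP2 (2.70 ± 0.066) rose as well. CXCR5, a chemokine receptor that HL-60 cells are known to induce with ATRA, had 2 counts before and was at 6.46, 5.85 and 6.57 CPM after treatment. The fall was that of IFIT1, an antiviral gene, from 1.50 to 0.801 CPM (-0.92 ± 0.37, adjusted p = 0.045). It was not called with the replicate number as a block (adjusted p = 0.055), nor without ATRA replicate 2 or 3 or untreated replicate 2 (adjusted p = 0.10, 0.17 and 0.39).

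**Figure D2:**
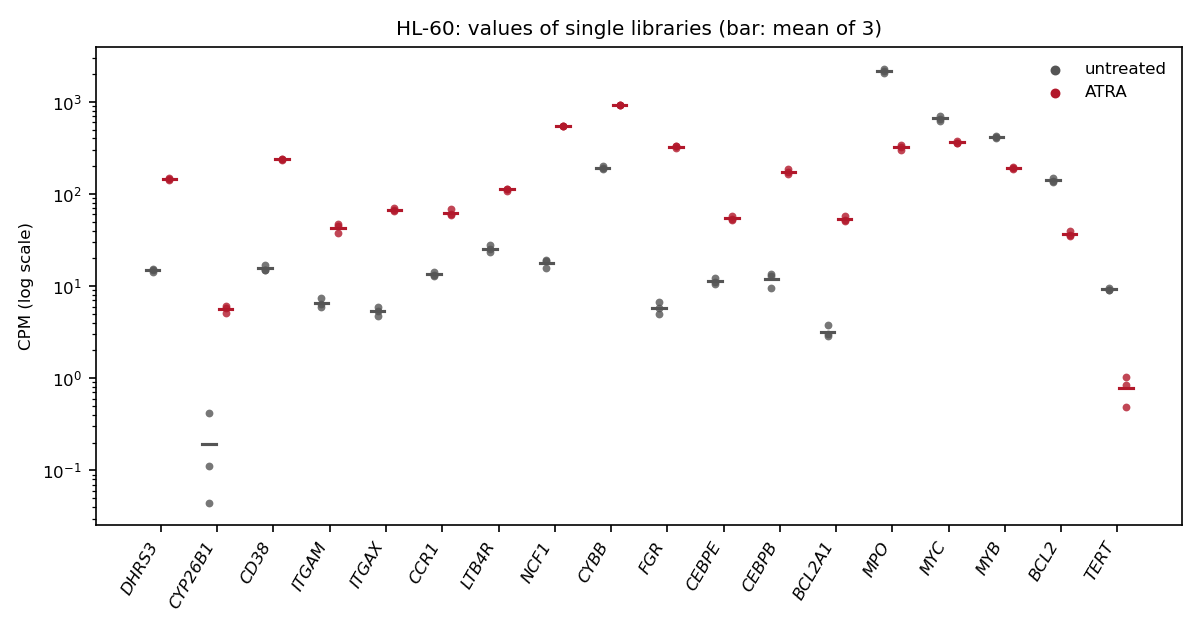
Level of 18 genes in each of the 6 libraries, in CPM on a log axis (vertical), by gene (horizontal), untreated in grey and ATRA in red; bars are means of 3 libraries. The 2 groups do not overlap for any of the 18 genes, the first 13 of which are higher and the last 5 (MPO, MYC, MYB, BCL2, TERT) lower with ATRA. Over all tested genes the groups did not overlap for 29.2% (higher) and 27.7% (lower).

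Promoter sequences were read for the receptor targets because RAR and RXR pairs bind 2 copies of a hexamer separated by 5 bases. The 250 bases before each gene's start were searched on both strands, overlaps allowed, for 2 half-sites in the same orientation with 5 bases between them (DR5), each half-site being AGGTCA, with G allowed in place of its leading A and T in place of the G before TCA. The pattern was in 19 of 27305 promoters (0.0696%), in 6 of the 10889 promoters of tested genes (0.0551%) and in 2 of the 921 of genes that rose at least 2-fold (0.217%). Those 2 genes were RARB and BATF2, and no promoter of the 500 genes that fell 2-fold held it. BATF2, a basic leucine zipper factor of the interferon response, had 2 counts in the untreated libraries and was at 6.37, 6.75 and 5.93 CPM after ATRA. The stretches below are from RefSeq promoters on GRCh38.p14, 5′ to 3′ on the strand of the gene, with the pattern in capitals. It starts 53 bases before the start of RARB (chr3:25428163-25428262, plus strand) and 29 before that of BATF2 (chr11:64990278-64990377, minus strand).
RARB: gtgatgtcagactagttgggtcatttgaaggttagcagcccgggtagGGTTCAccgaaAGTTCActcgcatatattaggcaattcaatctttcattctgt
BATF2: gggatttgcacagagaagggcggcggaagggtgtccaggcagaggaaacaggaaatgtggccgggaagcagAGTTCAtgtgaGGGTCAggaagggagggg
The other 4 tested genes with the pattern changed by -0.27 to 0.22 on the log2 scale: -0.27 for PRSS27, -0.11 for HROB, 0.06 for PHF8 and 0.22 for ATXN1L. The same half-sites spaced by 2 bases were in none of the 921 promoters, and spaced by 1 base in 1, that of BTBD19 (2.39). A match describes these letters only, and sites further from the start were not searched.

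Among transcription factors of myeloid cells 18 of 36 rose, 8 fell and 10 did not pass (median log2 change 0.36). Rises were 50.0% of the list, against 25.2% of all tested genes, and falls 22.2%, near the 23.3% of all tested genes. The CEBP family, leucine zipper factors that drive granulocyte genes, shows the range. CEBPE, required for the secondary granule stage, was at 10.7, 12.1 and 11.2 CPM in untreated and 57.9, 53.2 and 52.7 CPM in ATRA libraries (2.27 ± 0.083). CEBPB was at 13.5, 13.0 and 9.63 and 186, 172 and 164 CPM (3.85 ± 0.11). CEBPA rose by 0.51 from a high level (518 to 736 CPM), CEBPD and CEBPG did not pass, and SPI1, which encodes PU.1, rose by 0.60. ID1 and ID2, which inhibit helix-loop-helix factors, rose by 4.22 and 2.56. GFI1, the repressor that favours neutrophils over monocytes, had a change of 0.00 ± 0.045 and did not pass. IRF8, the monocyte and dendritic cell factor, fell from 119.5 to 66.6 CPM, and KLF4 fell by 1.31.

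Receptors that guide neutrophils rose in most cases: 14 of 19 chemoattractant and cytokine receptors were higher, 2 lower (1 without ATRA replicate 1) and 3 did not pass (median 0.77). LTB4R, the leukotriene B4 receptor, was at 27.9, 23.4 and 25.0 CPM in untreated and 114, 114 and 109 CPM in ATRA libraries (2.15 ± 0.065). CSF3R, the receptor for G-CSF, was at 146, 143 and 138 and 385, 383 and 363 CPM (1.41 ± 0.056). Both genes had groups that did not overlap. The formyl peptide receptors FPR1 and FPR2 rose by 4.73 and 2.88 yet stayed low, at 2.31 and 0.772 CPM after ATRA, and C5AR1 reached 6.30 CPM. CCR1 (2.21), CCRL2 (3.08) and PTAFR, the platelet activating factor receptor (2.33), rose. The TNF receptor TNFRSF1A fell by 0.50, and TNFRSF1B, at 80.4 and 85.5 CPM, did not pass.

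Receptors for antibody, complement and microbial patterns gave 19 rises, 5 falls (3 in the fit of 24 libraries) and 2 not called among 26 tested (median 1.05). CR1, the complement receptor that binds C3b, was at 17.5, 16.5 and 18.1 CPM before and 187, 188 and 181 CPM after ATRA (3.42 ± 0.061). TREM1, an amplifier of inflammatory signals, rose from 6.98 to 46.0 CPM, and FCER1G, the shared Fc receptor gamma chain, from 79.7 to 205 CPM. Toll-like receptor genes split: TLR1, TLR4 and TLR6 rose by 2.57, 1.12 and 1.68, and TLR2 fell by 0.88. The Fc gamma receptor gene FCGR2A fell by 0.61. FCGR3B, the receptor of mature neutrophils, did not pass the filter (2, 0 and 4 counts after ATRA).

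Adhesion genes rose in 15 of 20 cases, fell in 4 and did not pass in 1 (median 0.65). ITGAM, the CD11b chain and a common surface marker of granulocytic maturation, was at 6.38, 7.35 and 5.91 CPM in untreated and 46.8, 44.4 and 37.8 CPM in ATRA libraries (2.71 ± 0.10, adjusted p = 7.2e-16). ITGAX, which encodes CD11c, was at 5.89, 5.42 and 4.78 and 66.9, 70.0 and 65.9 CPM (3.66 ± 0.098). Their shared beta chain ITGB2 rose by 1.14 from 465 CPM, so that it was more abundant than either alpha chain in both groups per kb of annotated exon (68.4 CPM per kb against 1.15 and 0.758 in untreated cells, 151 against 7.57 and 9.56 after ATRA). ITGAL, the CD11a chain, did not pass (196 and 187 CPM). ICAM1 rose by 4.13, and the fibronectin receptor chains ITGA5 and ITGA4 and the hyaluronan receptor CD44 fell by 0.66, 0.43 and 0.62.

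Of 11 genes for the NADPH oxidase and its partners, which make superoxide in phagocytes, 10 rose and 1, the assembly factor CYBC1, did not pass (median 0.63). NCF1, the p47 organiser subunit, was at 19.1, 18.9 and 15.6 CPM in untreated and 542, 544 and 544 CPM in ATRA libraries (4.92 ± 0.073, adjusted p = 9.2e-23). NCF1 has near-identical pseudogene copies, so how its reads were shared out by the authors' counting is uncertain. CYBB, the gp91 catalytic subunit, was at 191, 187 and 203 and 917, 926 and 913 CPM (2.25 ± 0.046). The membrane partner CYBA (0.65), NCF4 (0.63) and the GTPases RAC2 (0.33) and RAC1 (0.16) rose less. In untreated cells CYBB was already higher than NCF1, at 43.8 CPM per kb against 5.16.

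The letters GAAA repeated after any 2 bases form the core of the element that interferon regulatory factors are known to bind, and the promoters of both leading oxidase genes held them. The pattern, searched in the same way, was in 3.07% of all promoters, 2.44% of those of tested genes, 4.23% of genes that rose 2-fold (39 of 921) and 1.4% of genes that fell 2-fold (7 of 500). The stretches show CYBB (chrX:37779823-37779992, plus strand, matches starting 225 and 86 bases before the start), NCF1 (chr7:74773850-74773949, plus strand, 116 bases), the interferon-induced gene IFI6 (chr1:27672253-27672372, minus strand, 156, 115 and 93 bases) and the antiapoptotic gene BCL2A1 (chr15:79971275-79971374, minus strand, 133 bases), with matches on either strand in capitals.
CYBB: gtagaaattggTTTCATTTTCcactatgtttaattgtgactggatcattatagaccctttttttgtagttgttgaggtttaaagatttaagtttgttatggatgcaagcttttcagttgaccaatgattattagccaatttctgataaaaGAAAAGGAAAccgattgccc
NCF1: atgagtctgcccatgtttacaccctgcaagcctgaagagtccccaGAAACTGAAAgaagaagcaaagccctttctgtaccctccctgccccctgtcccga
IFI6: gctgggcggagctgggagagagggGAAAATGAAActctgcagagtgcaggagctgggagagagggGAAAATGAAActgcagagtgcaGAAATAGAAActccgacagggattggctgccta
BCL2A1: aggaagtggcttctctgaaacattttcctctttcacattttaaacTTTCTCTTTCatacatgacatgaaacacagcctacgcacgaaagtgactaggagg
IFI6 had 3 matches, CYBB had 2 and the other pair 1 each. The genes shown were chosen from those with a match, and how many other oxidase or interferon genes held the pattern was not counted. No binding was measured.

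Granule proteins are made in sequence as neutrophils mature. Of 15 azurophil granule genes, which promyelocytes express, 9 fell and 6 rose (median -0.41), where 23.3% of all tested genes were lower and 25.2% higher. Of 15 specific and gelatinase granule genes, which later stages express, 11 rose and 4 fell (median 2.89, or 2.02 with genes at 0 set to their lower bound). With a filter of at least 1 CPM in 3 libraries the latter were 7 and 2. The difference between the lists was not tested. MPO encodes myeloperoxidase, an azurophil granule enzyme. It was at 2178, 2288 and 2041 CPM in untreated and 337, 327 and 298 CPM in ATRA libraries (-2.76 ± 0.070, adjusted p = 5.0e-19). CTSG, cathepsin G, was at 52.9, 57.7 and 53.6 and 7.28, 6.32 and 5.93 CPM, and PRSS57, another serine protease of these granules, at 10.4, 10.7 and 7.62 and 0.474, 0.176 and 0.381 CPM. The elastase ELANE, PRTN3 and AZU1, which lie beside each other in the genome, fell by only 0.38, 0.79 and 0.41. Against this DEFA4, a defensin (1.43 to 36.7 CPM), and BPI, which binds bacterial lipopolysaccharide (0.613 to 13.5 CPM), rose.

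Among later granule genes MMP8, neutrophil collagenase, had 2 counts before ATRA and was at 8.61, 7.59 and 6.91 CPM after it. HP, haptoglobin, was at 11.3, 13.1 and 10.0 CPM in untreated and 92.1, 88.4 and 93.1 CPM in ATRA libraries (2.99 ± 0.078). ORM1, an acid glycoprotein, rose from 4.45 to 215 CPM; ORM2 is a near copy and reads may be split between the pair. LTF (lactoferrin) and CAMP (cathelicidin) rose but only to 0.294 and 0.635 CPM. LTF had 2 counts in the untreated group, a ratio of 20.7 in CPM (95% counting interval 5.39 to 176), and CAMP had a log2 change of 2.89 ± 0.62. MMP9, the gelatinase that names the gelatinase granule, fell from 2.99 to 0.300 CPM, and SLPI fell by 2.15. LCN2, OLFM4, ARG1, PGLYRP1 and TCN1 did not pass the filter, with at most 16 counts in a library. CHI3L1, an abundant secreted lectin, was at 2082 CPM before and 3139.8 CPM after ATRA (0.59 ± 0.046).

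**Figure D3:**
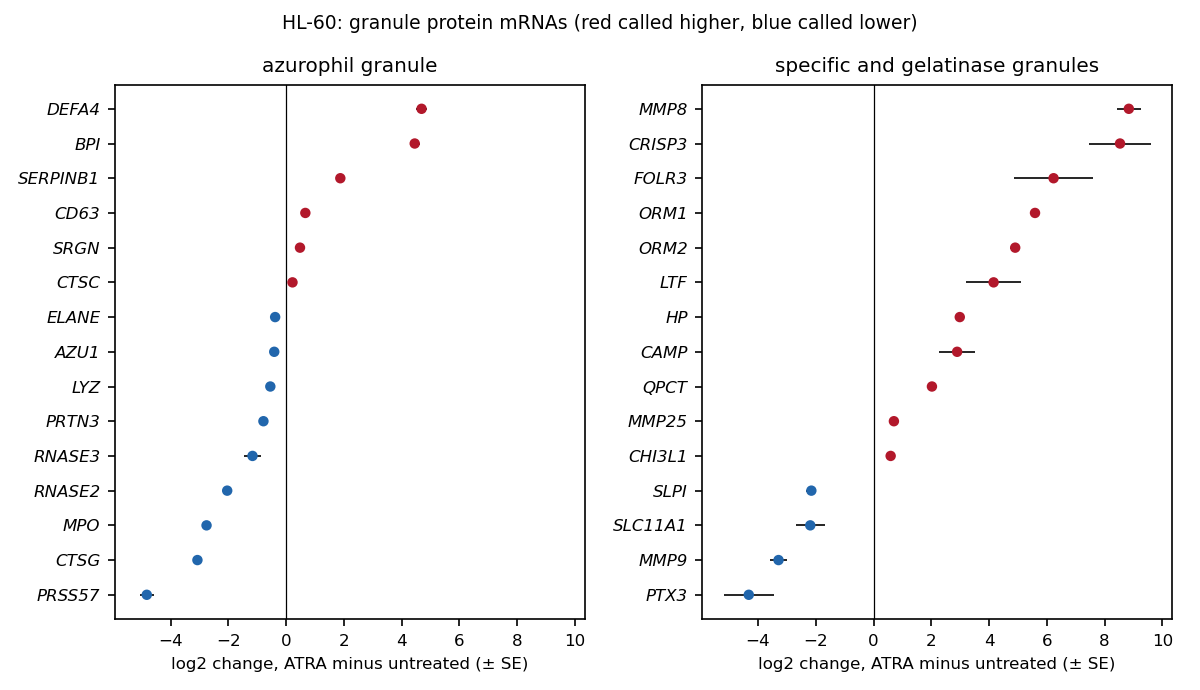
Log2 change with ATRA (horizontal axis, error bars SE of the fit) of the 15 tested azurophil granule genes (left panel) and the 15 tested specific and gelatinase granule genes (right panel). On the left 9 genes are below 0 and 6 above; on the right 11 are above and 4 below, and CRISP3 and FOLR3, with no count in untreated libraries, have fitted changes that are no bound.

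The calprotectin genes S100A8 and S100A9, which make up much of the neutrophil cytosol, were low in untreated HL-60 cells and higher after ATRA. S100A8 was at 0.446, 0.710 and 0.354 CPM before and 24.8, 24.6 and 30.6 CPM after (5.69 ± 0.17), and S100A9 at 1.46, 2.28 and 1.64 and 81.0, 83.4 and 75.8 CPM (5.46 ± 0.12). Neither pair of groups overlapped. ANXA1, an annexin that limits neutrophil recruitment, rose from 30.6 to 97.4 CPM, and ANXA2 and its partner S100A10, which bind plasminogen at the surface, fell by 1.24 and 2.05. Of the 14 S100 and annexin genes, 9 rose, 3 fell and 2 did not pass. Rises were 64.3% of the list, against 25.2% of all tested genes, and falls 21.4%, near the 23.3% of all tested genes.

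Lysosomal genes rose nearly as a whole: 28 of 31 were called higher, 0 lower by edgeR (0 also at an unadjusted p of 0.05 and with DESeq2 or limma-voom), and 3 did not pass, CTSH and SCARB2 among them (median 1.02, against 25.2% of all tested genes called higher). CTSD, the aspartyl protease cathepsin D, was at 73.3, 72.6 and 67.1 CPM in untreated and 1398, 1329 and 1426 CPM in ATRA libraries (4.28 ± 0.067, adjusted p = 1.5e-22). PSAP, the precursor of the saposins that help degrade sphingolipids, was at 317, 313 and 283 and 3149, 3213 and 3167 CPM (3.38 ± 0.053). Per kb of annotated exon their levels after ATRA were 443 CPM for CTSD and 981 CPM for PSAP. ASAH1, acid ceramidase, rose by 2.25, progranulin GRN by 1.57, and TFEB, the transcription factor of lysosome genes, from 74.7 to 256 CPM. Subunits of the proton pump rose less (ATP6V0D1 1.24, ATP6V1A 0.82, ATP6V1H 0.40).

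Signalling partners of the integrins and Fc receptors rose in 18 of 27 cases, fell in 2 and did not pass in 7 (median 0.34). FGR, a Src-family kinase of mature myeloid cells, was at 6.67, 5.80 and 4.96 CPM before and 329, 317 and 329.8 CPM after ATRA (5.81 ± 0.076, adjusted p = 1.4e-23). Its relative LYN rose by 0.68 from a higher level (165 CPM). PIK3CG, the phosphoinositide kinase that chemoattractant receptors engage, rose from 47.1 to 397 CPM, and PLCB2, a phospholipase of the same route, from 90.4 to 436 CPM. Genes of leukotriene and prostaglandin synthesis rose in 8 of 14 cases, fell in 2 and did not pass in 4. ALOX5AP, the protein that presents arachidonate to 5-lipoxygenase, was at 65.7, 72.8 and 64.1 and 488, 512 and 492 CPM (2.88 ± 0.059). ALOX5 itself rose from 12.2 to 36.6 CPM, and the prostaglandin synthases PTGS1 and PTGES rose by 2.48 and, from 4 counts in all untreated libraries, to 14.0 CPM.

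Of 36 interferon-stimulated genes, 22 rose, 5 fell and 9 did not pass (median 0.63). IFI6 was at 1.01, 1.65 and 0.974 CPM in untreated and 19.0, 16.8 and 15.3 CPM in ATRA libraries (3.79 ± 0.19). OAS3 and OAS1, sensors of double-stranded RNA, rose by 2.23 and 2.80, and STAT2 and IRF9, which carry the interferon signal, by 0.61 and 0.90. The falls called numbered 2 in place of 5 without ATRA replicate 2 or without untreated replicate 2, and XAF1 and USP18 were the largest of them. XAF1, a proapoptotic interferon gene, was at 14.6, 14.3 and 18.0 CPM before and 2.95, 3.21 and 2.10 CPM after ATRA (-2.50 ± 0.15), and USP18, which removes ISG15 and dampens interferon signalling, at 13.5, 15.3 and 12.2 and 3.23, 3.98 and 2.59 CPM (-2.06 ± 0.16). MX1 and ISG15 did not pass. IRF1, a factor of the interferon gamma response, rose from 21.7 to 79.2 CPM. Of 19 genes of MHC class I presentation 16 rose, 1 fell and 2 did not pass, B2M among the risers (1237 to 2058 CPM, 0.73 ± 0.038) and the chaperone CALR the member that fell (2869 to 1607 CPM). Of the class II genes, HLA-DMA and HLA-DMB, which load peptides, rose by 2.01 and 4.21, HLA-DRA did not pass and the transactivator CIITA fell by 0.49.

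Chemokines and cytokines included some of the steepest rises. CCL2, the monocyte chemoattractant, was at 1.36, 0.561 and 1.33 CPM in untreated and 102, 103 and 90.0 CPM in ATRA libraries (6.54 ± 0.14). CCL24, an eosinophil chemoattractant, was at 0.0469, 0.0748 and 0.0443 and 17.1, 17.7 and 13.4 CPM. CXCL8, interleukin 8, rose from 14.7 to 60.2 CPM, CXCL16 from 1.34 to 16.4 CPM and IL1B from 0.392 to 8.85 CPM. The interleukin 1 antagonist IL1RN went the other way, at 33.5, 36.9 and 31.0 CPM before and 2.54, 2.75 and 1.99 CPM after (-3.79 ± 0.11). TNF and VEGFA fell by 1.30 and 1.01. In all 17 of 31 rose, 5 fell and 9 did not pass, and the NF-kB subunits RELA and NFKB1 were among those not called.

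Apoptosis genes rose in 19 of 36 cases, fell in 9 and did not pass in 8 (median 0.25), with opposite moves among the antiapoptotic members. Rises were 52.8% of the list, against 25.2% of all tested genes, and falls 25.0%, near the 23.3% of all tested genes. BCL2 was at 135, 137 and 148 CPM in untreated and 39.6, 35.8 and 34.7 CPM in ATRA libraries (-1.94 ± 0.065, adjusted p = 8.1e-17). BCL2A1, its relative in mature myeloid cells, was at 3.00, 3.74 and 2.88 and 52.4, 51.2 and 57.3 CPM (4.05 ± 0.091). BCL2L1 and MCL1 rose by 1.14 and 0.38. Of the death-promoting BH3 genes, BMF and PMAIP1 rose by 1.78 and 1.47, BIK fell from 7.64 to 0.760 CPM, and BCL2L11 and BBC3 did not pass. TNFSF10, the TRAIL ligand, fell from 8.53 to 2.77 CPM.

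**Figure D4:**
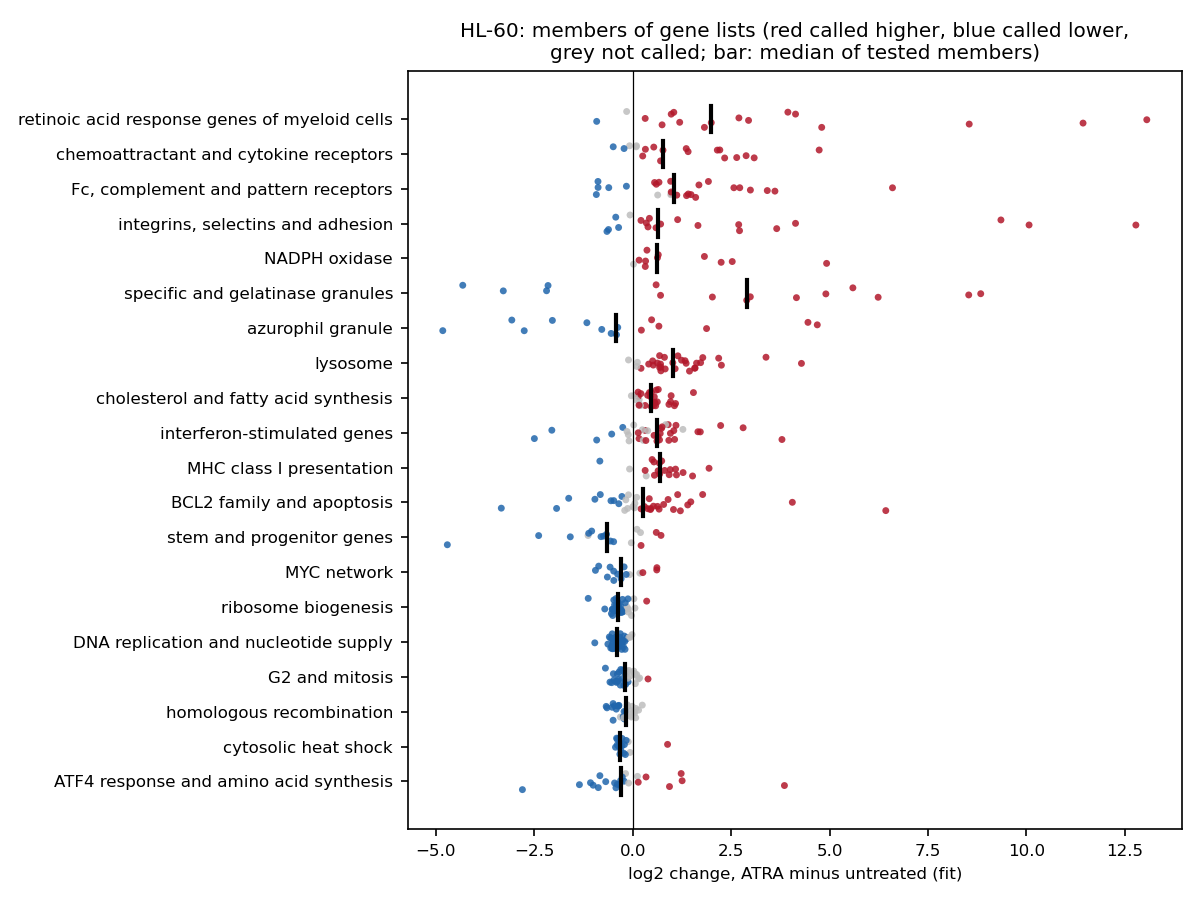
Log2 change with ATRA (horizontal axis) of each tested member of 20 gene lists (vertical axis), red where called higher, blue where called lower and grey where not called; black bars are medians of the tested members. The medians of retinoic acid response genes (1.99), specific granules (2.89) and lysosome (1.02) lie to the right and those of stem and progenitor genes (-0.67), DNA replication (-0.39) and ribosome biogenesis (-0.37) to the left; members with no count in 1 group are drawn at fitted values that are no bound.

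Most of the listed genes of proliferating cells fell, by small amounts. Of 42 DNA replication genes 39 fell, 0 rose by edgeR (0 also at an unadjusted p of 0.05 and with DESeq2 or limma-voom) and POLD1, RRM2 and PRIM1 did not pass, against 23.3% of all tested genes that fell. The median log2 change was -0.39. GINS2, a subunit of the replicative helicase, had the largest fall (43.6 to 22.3 CPM, -0.96 ± 0.075), and of the genes for the helicase ring MCM2, MCM3, MCM4, MCM6 and MCM7 fell by 0.28 to 0.53. MCM4, for example, was at 651, 710.1 and 669 CPM before and 474, 462 and 465 CPM after ATRA. Of 35 genes of G2 and mitosis, 23 fell, 1 rose and 11 did not pass (median -0.21). MKI67, the Ki-67 antigen, was at 810.0, 670.2 and 779 and 789, 802 and 765 CPM and did not pass, as did TOP2A and CDK1. CCNB1 fell by 0.49 and TTK, a spindle checkpoint kinase, rose by 0.39. In bulk RNA, fewer cells in a phase and less RNA per cell cannot be told apart.

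Regulators of the G1 phase showed which parts moved most. The D cyclin CCND3 was at 942, 996 and 872 CPM in untreated and 518, 504 and 503 CPM in ATRA libraries (-0.88 ± 0.051), and CCND2 fell by 1.23, as did CCND1. SKP2, which marks p27 for degradation, fell by 0.72, and E2F5 from 4.91 to 0.585 CPM. Among inhibitors of cell division, CDKN2D (p19) rose from 3.41 to 8.34 CPM and CDKN2C (p18) from 67.4 to 91.0 CPM, whereas CDKN1A (p21), at 1.24, 1.48 and 1.77 and 1.08, 0.987 and 1.65 CPM, and CDKN1B (p27), at 50.0 and 54.9 CPM, did not pass. The antiproliferative gene BTG2 was at 4.39, 5.23 and 5.36 and 41.2, 43.6 and 42.2 CPM (3.08 ± 0.076).

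MYC was at 649, 706 and 626 CPM in untreated and 373, 356 and 358 CPM in ATRA libraries (-0.87 ± 0.052, adjusted p = 2.4e-12); HL-60 is known for its amplified copies of this gene. Its antagonists MXD1 and MXD4 rose by 0.61 and 0.61. Of 36 ribosome biogenesis genes, a known MYC programme, 29 fell, 1 rose and 6 did not pass (median -0.37), from LYAR (120.2 to 54.9 CPM) to nucleolin NCL (2305 to 1752 CPM). Of 79 ribosomal protein genes 64 did not pass. MYB, the progenitor factor, was at 400.1, 414 and 428 and 189.8, 194 and 188 CPM (-1.12 ± 0.044), and of 17 stem and progenitor genes 10 fell, 3 rose and 4 did not pass (median -0.67). GATA2 fell from 40.4 to 7.72 CPM, WT1 from 60.5 to 20.2 CPM, FLT3 from 44.0 to 21.3 CPM and ERG from 4.11 to 0.160 CPM. TERT, the catalytic subunit of telomerase, was at 9.11, 9.16 and 9.61 CPM before and 0.840, 1.04 and 0.487 CPM after ATRA (-3.54 ± 0.21).

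DNA repair and checkpoint genes, which the study's title names for acute promyelocytic leukaemia cells, were lower in 66 of 137 cases in HL-60 cells, by little. Over the 7 lists together this was 48.2% (against 23.3% of all tested genes), while 8 rose (5.84%, against 25.2%) and 63 did not pass, with a median log2 change of -0.17; 1 fell by 2-fold or more. That gene was MPG, the glycosylase that removes alkylated purines, at 36.6, 40.8 and 36.0 CPM in untreated and 9.78, 8.97 and 8.12 CPM in ATRA libraries (-2.08 ± 0.083). PARP1, which senses strand breaks, was at 741, 729 and 706 and 477, 471 and 460.2 CPM (-0.63 ± 0.037). In homologous recombination 15 of 32 fell and 0 rose by edgeR, at an unadjusted p of 0.05 or with the other 2 tools (BRCA2 -0.47, BLM -0.66), while BRCA1 did not pass (-0.15 ± 0.074, or -0.24 and adjusted p = 0.0065 without untreated replicate 2). The checkpoint kinase CHEK1 fell by 0.45 and ATR did not pass. In mismatch repair MSH6 fell by 0.51. In end joining LIG4 rose by 0.47 and the XRCC5 and XRCC6 genes for Ku fell by 0.19 and 0.30.

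Of 27 genes of NADPH and glutathione metabolism 12 rose, 6 fell and 9 did not pass (median 0.06). Rises were 44.4% of the list, against 25.2% of all tested genes, and falls 22.2%, near the 23.3% of all tested genes. PGD, of the pentose phosphate pathway that supplies NADPH to the oxidase, was at 209, 219 and 191 CPM in untreated and 739.6, 766 and 766 CPM in ATRA libraries (1.87 ± 0.046). TKT, of the same pathway, rose by 1.05, while TALDO1, RPIA and RPE did not pass. The peroxiredoxins PRDX1 and PRDX2 fell by 1.04 and 1.17. Of 24 glycolysis genes 10 rose, 8 fell and 6 did not pass. HK3, the hexokinase of neutrophils, rose from 0.206 to 14.3 CPM and HK2 fell from 166 to 101 CPM, and LDHA fell by 0.59. Of 31 genes of cholesterol and fatty acid synthesis 25 rose, 0 fell by edgeR (0 also at an unadjusted p of 0.05 and with DESeq2 or limma-voom) and 6 did not pass (median 0.47). SREBF1, the lipid synthesis factor, was at 25.0, 25.8 and 22.9 and 75.1, 75.9 and 63.6 CPM (1.54 ± 0.080).

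Of 23 genes of the ATF4 response and amino acid synthesis 14 fell, 6 rose and 3 did not pass (median -0.31). PHGDH, the first enzyme of the serine route, was at 118, 123 and 105 CPM before and 48.7, 44.5 and 41.9 CPM after ATRA (-1.36 ± 0.075), PSAT1 fell by 1.07, PSPH fell by 0.84, and the proline enzymes PYCR1 and ALDH18A1 by 1.01 and 0.69. ATF4 itself fell by 0.22. Cytosolic chaperones fell in 17 of 20 cases with 1 rise, that of BAG3 (median -0.32), HSPA8 going from 3675 to 2765 CPM. HSPA1A and HSPA1B did not pass the filter.

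Nuclear envelope and chromatin genes listed for nuclear segmentation gave 6 rises and 8 falls among 20, and 6 did not pass. Of all tested genes 25.2% were higher and 23.3% lower. LBR, the lamin B receptor needed for lobed nuclei, was at 699, 715 and 762 CPM in untreated and 1601, 1548 and 1581 CPM in ATRA libraries (1.12 ± 0.042). LMNA, the A-type lamin that stiffens the nucleus, was at 176, 178 and 159 and 102, 105 and 104 CPM (-0.72 ± 0.053), and LMNB1 fell by 0.69. PADI4, which citrullinates histones, rose from 0.564 to 30.3 CPM. Among chromatin enzymes DNMT3A rose and DNMT3B fell, by 1.35 and 0.98, and KDM5B fell by 1.15.

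Markers of other blood lineages were counted in each group as a check on identity. The summed level of 12 monocyte and macrophage markers was 28.6 to 31.2 CPM in untreated and 71.3 to 78.2 CPM in ATRA libraries; MRC1, C1QA and C1QB had no count in either group, CD14 did not pass, and VSIG4 rose from 3.52 to 31.9 CPM. The 10 neutrophil lineage markers summed to 3881 to 4262 CPM before and 1660 to 1804 CPM after, mostly through MPO and PRTN3. Eosinophil, basophil and mast cell markers summed to 57.7 to 64.9 and 27.6 to 28.8 CPM: EPX, eosinophil peroxidase, fell from 13.8 to 0.841 CPM and HDC, histidine decarboxylase, from 8.74 to 0.164 CPM, whereas CLC, the Charcot-Leyden crystal protein, rose from 0.0281 to 3.60 CPM. B cell markers summed to 2.42 to 3.53 and 103.9 to 115.8 CPM, nearly all of it CD22, a sialic acid binding lectin, at 1.83, 2.02 and 1.22 and 106, 116 and 104 CPM (6.00 ± 0.10); MS4A1 and IGHM had no count in either group. The 12 T and NK cell markers summed to 201.9 to 222.8 and 346.4 to 360.3 CPM. CD4, which myeloid cells also express, rose from 149 to 261 CPM and NKG7 from 45.6 to 94.2 CPM, whereas TRAC, the constant region gene of the T cell receptor alpha chain, fell from 9.96 to 0.287 CPM, and CD8A had no count in either group. The 11 non-blood markers summed to 3.73 to 4.36 and 0.900 to 1.38 CPM. Of 14 erythroid and megakaryocyte markers 10 had no count in either group. Whether a change in cell types played a part in any result was not tested.

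Genes that rose together were in places neighbours. In the order of tested protein-coding genes, 35 runs of at least 3 neighbours that each rose 2-fold held 124 genes, and 7 runs of falls held 22, among 12406 genes placed. Of tested protein-coding genes, 1120 rose and 599 fell at least 2-fold, so rises had more occasion to form runs. How many runs a random order would give was not tested. The longest run of rises lay on chromosome 19 (chr19:35248330-35451767 on GRCh38) and held 7 genes. Among them were HAMP, CD22 and the free fatty acid receptor genes FFAR1, FFAR3 and FFAR2. FFAR2, which neutrophils use to sense short-chain fatty acids, was at 0.469, 0.299 and 0.177 CPM in untreated and 8.29, 9.00 and 8.82 CPM in ATRA libraries (4.79 ± 0.21), and FFAR3, without a count before, reached 0.180 CPM. Another held TGM2, KIAA1755 and BPI (chr20:38127387-38337505), and others S100A9, S100A12 and S100A8 (chr1:153357854-153391188), the integrin genes ITGAM, ITGAX and ITGAD (chr16:31259967-31426505), and ICAM1, ICAM4 and ICAM5 (chr19:10270835-10296778). Reads from overlapping or near-identical neighbours can be shared between genes, which was not tested.

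The other HL-60 arms of the study share the untreated libraries with this comparison, so their levels are set beside the ATRA level without a test. CD38 was at 12.5 CPM in ATO-treated and 137 CPM in cells given both agents, against 239.7 CPM with ATRA alone. TGM2 was at 0.0817 and 2611 CPM, against 927. For MPO the levels were 1128, 71.8 and 321 CPM, and for MYC 456, 255 and 363 CPM. PTGES was at 0.00690 CPM with ATO, 149 with both and 14.0 with ATRA.

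The response of HL-60 was then set against that of NB4, whose 6 libraries share none with it, in a fit of all 24 libraries. Of 17930 genes tested the ATRA response differed between the lines for 6185 (34.5%), 3007 above NB4 (16.8%) and 3178 below (17.7%). Differences of 2-fold or more were less even, 656 above (3.66%) and 1482 below (8.27%). Genes called at least 2-fold higher in both lines numbered 930, which is 63.1% of the HL-60 list and 36.7% of the NB4 list, and 394 fell 2-fold in both (42.3% and 32.3%). Of the 17930 genes, 1475 rose 2-fold in HL-60 and 2531 in NB4, and 932 and 1219 fell. Across genes the log2 changes of the lines had a Pearson r of 0.56 and a Spearman rho of 0.50; genes are not independent replicates. In 279 of the 17930 genes HL-60 rose and NB4 fell, and in 319 the reverse.

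**Figure D5:**
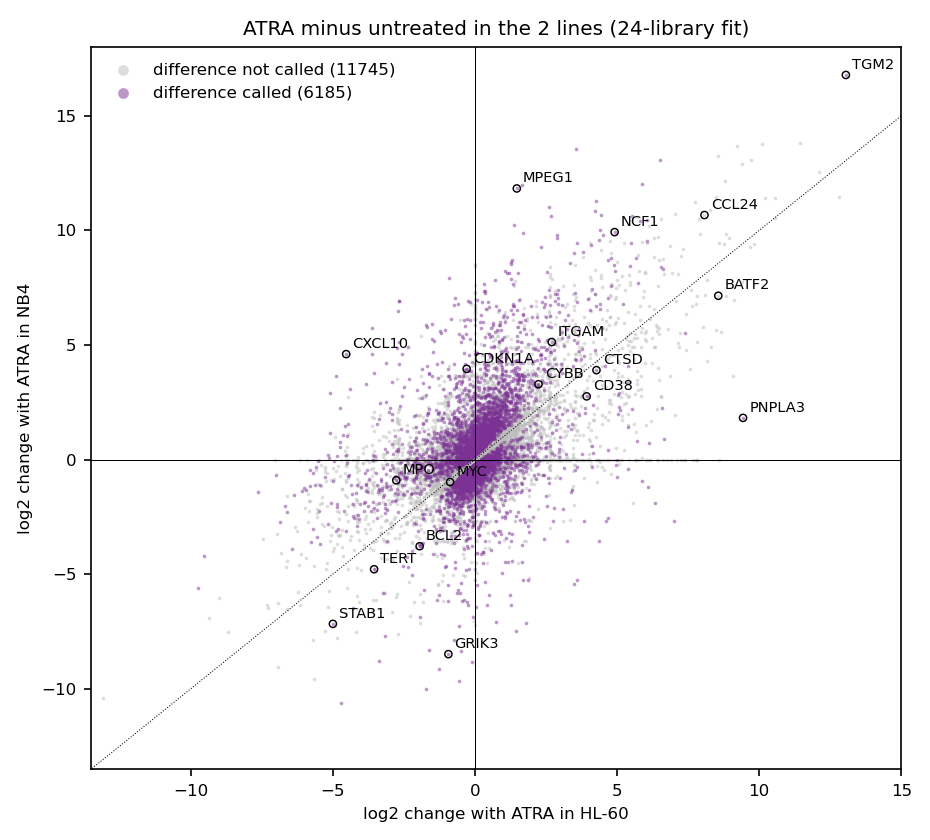
Log2 change with ATRA in HL-60 (horizontal axis) and in NB4 (vertical axis) for the 17930 genes of the 24-library fit, purple where the difference between the lines was called (6185) and grey where not (11745); the dotted line marks equal change. TGM2, NCF1 and ITGAM lie above the line, with the larger rise in NB4, and CD38 and CTSD below it; genes with no count in 1 group are drawn at fitted values that are no bound.

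Several panel genes rose in both lines and by less in HL-60. In the scaling of this fit NCF1 went from 19.3 to 582 CPM in HL-60 and from 1.30 to 1250.2 CPM in NB4, a difference of -5.01 ± 0.19 in log2 change (adjusted p = 1.5e-19). FGR differed by -4.62 ± 0.21, DHRS3 by -3.05 ± 0.18, S100A8 by -3.13 ± 0.42 and ITGAM by -2.43 ± 0.13. CD38 rose more in HL-60, from 16.8 to 257 CPM against 86.8 to 588 CPM in NB4 (1.17 ± 0.087). The difference between the lines was not called for CEBPE, LBR, MYB and MYC, with estimates of 0.12 ± 0.11, -0.11 ± 0.077, 0.11 ± 0.079 and 0.10 ± 0.087.

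Other genes differed more in their response. CDKN1A, which did not pass in HL-60, rose in NB4 from 0.716 to 11.3 CPM (difference -4.25 ± 0.36, adjusted p = 3.8e-11). TNFRSF1B was at 86.7 and 91.6 CPM in HL-60 and went from 0.275 to 34.9 CPM in NB4 (-6.90 ± 0.31). PRTN3 fell in HL-60 and rose in NB4 (373 to 1502 CPM, difference -2.80 ± 0.14), and ALDH1A1 rose in HL-60 and fell in NB4 (0.661 to 0.0457 CPM, difference 5.39 ± 0.69). PSAP rose more in HL-60 (2.04 ± 0.074) and MPO fell more (-1.86 ± 0.11). The repair genes BRCA1, CHEK1 and PARP1 were not called either (0.12 ± 0.14, 0.18 ± 0.095 and 0.02 ± 0.065), with adjusted p = 0.54, 0.16 and 0.91. Without NB4 ATRA replicate 2 the difference was called for BRCA1 (0.30, adjusted p = 0.039) and CHEK1 (0.28, adjusted p = 0.010).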

How the data were processed

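Messenger RNA was selected by oligo(dT), made into cDNA from random primers with a TruSeq RNA kit and sequenced in read pairs, per the labels' protocols. Per the submitters' processing notes the study used fastp, HISAT2, featureCounts, DESeq2 and GRCh38; their versions, the gene models, any use of strand and the counting of mates are not given in the sources used. The deposited values are raw counts per gene, and GRCh38 coordinates and gene types were taken from GENCODE v29. Below 10 counts, 74.8% of values were even, so 1 read pair may count as 2 and counting intervals may be too narrow.

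Genes passing filterByExpr (edgeR 4.0.16, R 4.3.3) were scaled by TMM. The main test was edgeR's quasi-likelihood test on all 12 HL-60 libraries with group as the only term, 8 residual degrees of freedom, and Benjamini-Hochberg adjustment over 15895 genes. A gene was called below 0.05. The line difference was the interaction in the same test on all 24 libraries. Levels are CPM, means of 3 libraries; values after ± are standard errors of the fit. The floor for a group at 0 was 3 counts per library, and counting intervals are exact 95% intervals that cover counting error only.

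Genes were named by these rules: the 15 largest rises and 15 largest falls reaching 5 CPM, a panel, each list's 4 smallest p-values and its most abundant uncalled member, the 6 largest differences between lines in each direction, and genes on in 1 group only at 2 CPM. The members and lists were chosen with earlier results of these data known, and genes named outside these rules were chosen after their values were seen. Some genes these rules name are not reported here. The labels' batch number is shared by samples of all groups and was taken to pair them. Same-batch residuals of the groups compared correlated between -0.0081 and 0.0041 over 3 pairs. On simulated counts the test was checked for recovery of 200 changed genes among 15013 (HL-60) or 15765 (difference between lines). With so few changed genes this cannot check the scaling of data in which 48.6% of genes were called. Alternatives were the replicate block, DESeq2 1.42.0, limma-voom 3.58.1, other scalings, filters and thresholds, and leaving out each library.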

Additional observations from a re-analysis of the deposited data

Results flagged for a closer look

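In these genes the ATRA response differed between HL-60 and NB4 by the interaction test over all 24 libraries (edgeR, adjusted p below 0.05). Each value is the log2 change in HL-60 minus that in NB4. The genes are the 6 largest differences in each direction and panel or described genes that differed by at least 4-fold.

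Genes that rose less in HL-60 were NCF1 (-5.01), FGR (-4.62), S100A8 (-3.13), DHRS3 (-3.05), S100A9 (-2.99) and ITGAM (-2.43). TGM2 differed by -3.73, or -2.90 with an adjusted p of 0.058 without HL-60 untreated replicate 2. With limma-voom it differed by -3.72 with an adjusted p of 0.15. CYP26A1, a retinoic acid hydroxylase, differed by -4.10, between -6.77 without NB4 untreated replicate 1 and -0.52 (adjusted p = 0.81) without HL-60 untreated replicate 1. CDKN1A (-4.25) and TNFRSF1B (-6.90) were not called in HL-60 and rose in NB4, and PRTN3 (-2.80) fell in HL-60 and rose in NB4. PSAP rose more in HL-60 (2.04). ALDH1A1 differed by 5.39, or 9.57 without NB4 ATRA replicate 3. KCNH4, a potassium channel gene, differed by -8.87 (1.79 to 4.64 CPM in HL-60, 0.0537 to 66.0 in NB4). PNPLA3 (7.61) went from 0.0169 to 12.5 CPM in HL-60 and from 0.453 to 1.60 in NB4.

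The other large differences involve a group with no count, so that the fitted value depends on the prior count and is no bound. MPEG1, a pore-forming protein of phagocytes, went from 2.31 to 6.39 CPM in HL-60 and from 0 to 10.0 CPM in NB4 (-10.36). KIAA1755 (-10.31), the long RNA PELATON (-9.98) and LRRC32 (-8.43, or -4.88 with an adjusted p of 1.00 without HL-60 untreated replicate 2) were also at 0 in untreated NB4. CXCL10, an interferon-induced chemokine, was at 0 in ATRA-treated HL-60 and at 10.3 CPM in ATRA-treated NB4 (-9.13). GRIK3 (7.55), GUCY1A2 (7.13), KLHL30 (6.95), GPR183 (6.69), MYO1E (5.87) and ELANE (5.75) were at 0 in ATRA-treated NB4. ELANE was at 175 and 134 CPM in HL-60 and 0.195 CPM in untreated NB4.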

How the results depend on the processing

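In HL-60, 7865 genes were called with the replicate number as a block, against 7723 without it, and 6955 to 7223 when 1 of the 6 compared libraries was left out. DESeq2 called 7963, limma-voom 7902, and an adjusted p under 0.01 left 6221. For the difference between the lines, 6030 genes were called with the block, against 6185, and 5666 to 6442 when 1 of the 12 compared libraries was left out. None of these counts, nor those in each direction, moved by 1.5 times or more under any alternative run. Calls that were higher made up 52.0% in the reported test and 46.2% with library sizes alone, which shifted the median log2 change of all genes to -0.04. Of the 267 HL-60 genes named, 234 were called and none of these changed sign. Among them 2 (RARA and IFIT1) lost the call under some alternative. Genes left without a test by an alternative, such as a stricter filter, were not counted as lost, here or between lines. Many named genes were picked for a small p or a large change, which favours stable calls. Another 8 that were not called became called somewhere: ITGAL and RRM2 with library sizes alone, RELA and CDKN1B with only 6 libraries fitted, BRCA1 under several. Leaving out 1 library gave CD14 (0.76, adjusted p = 0.045, without ATRA replicate 2), CDKN1B (0.17, 0.040, without ATRA replicate 1), CEBPD (0.36, 0.039, without ATRA replicate 3) and CTSH (0.17, 0.029, without untreated replicate 2). The block changed the call of IFIT1 and of no other named gene. In all, 23 of 110 list counts moved by over 1.5 times somewhere, mostly counts of a few genes.

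Between lines, CYP26A1, ELANE, LRRC32 and TGM2 lost the call under some alternative. For ELANE this was limma-voom (adjusted p = 0.051), which also lost CYP26A1 (0.080) and TGM2 (0.15). The libraries are deep, but genes with few counts have wide intervals. With 3 libraries a group and a biological coefficient of variation of 7.00%, small changes were called. Cell composition, cell number and RNA per cell were not measured.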

Other observations

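Of 27 actin and motility genes 14 rose, 4 fell and 9 did not pass (median 0.13). CAPG, which caps actin filaments, was at 385, 417 and 364 CPM in untreated and 869, 875 and 871 CPM in ATRA libraries (1.16 ± 0.052), and MYO1F, a myosin of neutrophils, rose from 164 to 322 CPM. FMNL1, a formin of blood cells, fell from 93.8 to 30.2 CPM. In 33 nuclear-encoded respiratory chain genes 19 rose, 2 fell and 12 did not pass (median 0.17), and 12 rose without untreated replicate 3.

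Of 15 coagulation and fibrinolysis genes 6 rose, 5 fell and 4 did not pass. F3, tissue factor, which starts coagulation, was at 11.1, 11.8 and 12.7 and 2.76, 2.57 and 2.76 CPM (-2.14 ± 0.12). PLAU, urokinase, rose from 83.4 to 239 CPM. The complement proteases C1R (0.163 to 8.90 CPM) and C1S (0.837 to 14.8 CPM) rose, and no ATRA library overlapped an untreated one for either gene. LRG1, a secreted glycoprotein of neutrophil granules, rose from 5.39 to 68.6 CPM, and RHEX, a regulator of erythroid expansion, fell from 26.3 to 0.544 CPM.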
